A study of Mus musculus with 12 samples.

Results

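The mRNAs of 9 genes of the fibroblast growth factor (FGF) pathway were followed in mouse embryonic stem cells (mESCs) and in their epiblast-like derivatives (EpiLCs). The genes were taken by name: the ligands Fgf4, Fgf5, Fgf8, Fgf15 and Fgf17 and the receptors Fgfr1, Fgfr2, Fgfr3 and Fgfr4. They are 9 of the 19630 named genes in the deposited count table, and all 9 were among the 13879 genes tested. Fgf5, Fgf8 and Fgfr3 passed the filter on low counts through their EpiLC libraries and not on mESC libraries alone, so a difference between the states was built into their selection for testing. The main results between the states were a switch in which ligands accompany Fgf4 and a gain of Fgfr2 in EpiLCs. The mutant EPOP effect was downward for Fgf4 in both states and upward for Fgf5, Fgf8, Fgf15 and Fgfr1 in EpiLCs. Of these rises Fgf8 alone passed a 2-fold threshold, and the Fgf5 call was lost without mutant EpiLC replicate 1.

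Total RNA was sequenced in 12 libraries of E14 cells, an established mouse embryonic stem cell line. All groups carried re-expressed EPOP, a protein that works with the Polycomb repressive complex PRC2, and unmodified or EPOP-lacking cells were not analysed here. There were 3 libraries each of EpiLCs with mutant EPOP, EpiLCs with wild-type (WT) EPOP, mESCs with mutant EPOP and mESCs with WT EPOP. The sources used here give neither the nature of the mutation nor how many clones stand behind a genotype. EpiLCs were obtained on fibronectin in a medium with 20 ng/ml activin A and 12 ng/ml bFGF, which is the protein of the Fgf2 gene. The mESCs grew on gelatin with LIF, 3 µM of the GSK3 inhibitor CHIR99021 and 1 µM of PD0325901, which blocks the kinase MEK. The groups of a state comparison therefore differ in medium, coating and cell state together.

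FGF ligands are secreted proteins that bind receptor tyrosine kinases on the cell surface together with heparan sulphate chains. Bound receptors recruit adaptor proteins and switch on the RAS, RAF, MEK and ERK chain, which in turn raises inhibitors of the same chain. In the early mouse embryo Fgf4 from the epiblast drives the choice between epiblast and primitive endoderm, and in stem cell cultures it primes cells to leave naive pluripotency. Fgf5 is a classical marker of the epiblast after implantation, and Fgf8 and Fgf17 are related ligands used in gastrulation and brain patterning.

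Promoter sequences are shown first because PRC2, the complex that EPOP works with, is known to occupy promoters rich in CG pairs. RefSeq promoter windows (GRCm38.p6, 250 bases before to 50 bases after a start site) were matched for 5 of the 9 genes, Fgf4, Fgf5, Fgfr2, Fgfr3 and Fgfr4. The 3 printed here belong to the most abundant ligand, Fgf4, and to the ligand and receptor with the widest differences between the states, Fgf5 and Fgfr2. Each is written 5′ to 3′ on the strand of its gene, and capitals mark CG pairs.
Fgf4 promoter (chr7:144861136-144861435, plus strand): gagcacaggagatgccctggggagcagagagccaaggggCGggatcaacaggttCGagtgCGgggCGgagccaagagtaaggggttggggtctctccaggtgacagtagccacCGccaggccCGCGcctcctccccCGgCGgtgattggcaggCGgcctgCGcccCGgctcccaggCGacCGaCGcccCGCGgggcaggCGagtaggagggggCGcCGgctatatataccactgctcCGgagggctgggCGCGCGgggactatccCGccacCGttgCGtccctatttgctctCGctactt
Fgf5 promoter (chr5:98253934-98254233, plus strand): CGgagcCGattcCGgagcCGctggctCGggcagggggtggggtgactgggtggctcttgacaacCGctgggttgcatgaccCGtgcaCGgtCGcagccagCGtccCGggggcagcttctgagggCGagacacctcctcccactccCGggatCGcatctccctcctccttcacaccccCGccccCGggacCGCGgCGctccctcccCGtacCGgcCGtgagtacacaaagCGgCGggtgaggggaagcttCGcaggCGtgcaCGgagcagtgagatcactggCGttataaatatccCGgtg
Fgfr2 promoter (chr7:130266759-130267058, minus strand): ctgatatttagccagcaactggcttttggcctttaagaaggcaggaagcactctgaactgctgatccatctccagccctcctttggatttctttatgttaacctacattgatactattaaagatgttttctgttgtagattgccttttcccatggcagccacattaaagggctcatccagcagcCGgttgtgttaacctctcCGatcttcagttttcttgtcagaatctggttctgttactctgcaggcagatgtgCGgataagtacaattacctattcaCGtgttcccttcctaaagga
The windows hold 28 CG pairs at Fgf4, 29 at Fgf5 and 4 at Fgfr2. Over all 32851 promoter windows of the same length the median was 7 CG pairs, with quartiles of 3 and 20. Fewer CG pairs were counted in 85.8% of all promoters than at Fgf4, in 87.1% than at Fgf5 and in 31.4% than at Fgfr2. The windows not printed had 26 and 30 CG pairs at the 2 listed starts of Fgfr3 and 20 at Fgfr4. Short motifs were searched on both strands, and the windows of these 5 genes held none of them. The share of all promoters with the motif was 7.06% for TAATCC, a homeobox site of the OTX kind. It was 1.74% for ATGCAAAT, the octamer of POU factors. It was 16.003% for CTTTGA, a TCF site, and 8.86% for CCGGAAG, an ETS site.

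Library depth ran from 7714164 to 10652151 counts over the named genes. Epop mRNA, listed as E130012A19Rik, averaged 206.6 ± 9.4 CPM in mutant EpiLCs and 208.8 ± 3.3 CPM in WT EpiLCs, and 468.7 ± 6.2 CPM in mutant mESCs and 472.9 ± 10.8 CPM in WT mESCs (CPM, counts scaled by TMM-corrected library size; SD, n = 3). It therefore did not separate the genotypes (edgeR adjusted p = 0.867 in EpiLCs and 0.877 in mESCs), and which columns are mutant rests on their names. All 11 naive pluripotency markers were lower and all 10 epiblast-like markers higher in EpiLCs than in mESCs, in mutant and in WT cells. Over all genes 32.6% were lower and 33.4% higher with the mutant, and 31.0% and 31.7% with WT EPOP. Summed naive markers stood at 378 to 383 CPM in mutant EpiLCs and 679.5 to 691 CPM in WT EpiLCs, against 5190 to 5278 CPM in mutant mESCs and 5409 to 5616 CPM in WT mESCs. All 11 naive markers were called lower in mutant than in WT EpiLCs, with a median log2 fold change of -1.09 (edgeR adjusted p of 1.55e-56 to 0.0123). Of the 10 epiblast-like markers 5 were higher and 3 lower, beside 7.02% and 8.82% of all genes. The part of these marker differences in the mutant effects on FGF genes in EpiLCs was not tested. The labels do not tell whether replicates are separate cultures. The p-values therefore reflect how far these libraries spread, and that spread may be technical. In bulk RNA, fewer cells of a type and less RNA per cell cannot be told apart.

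**Figure D1:**
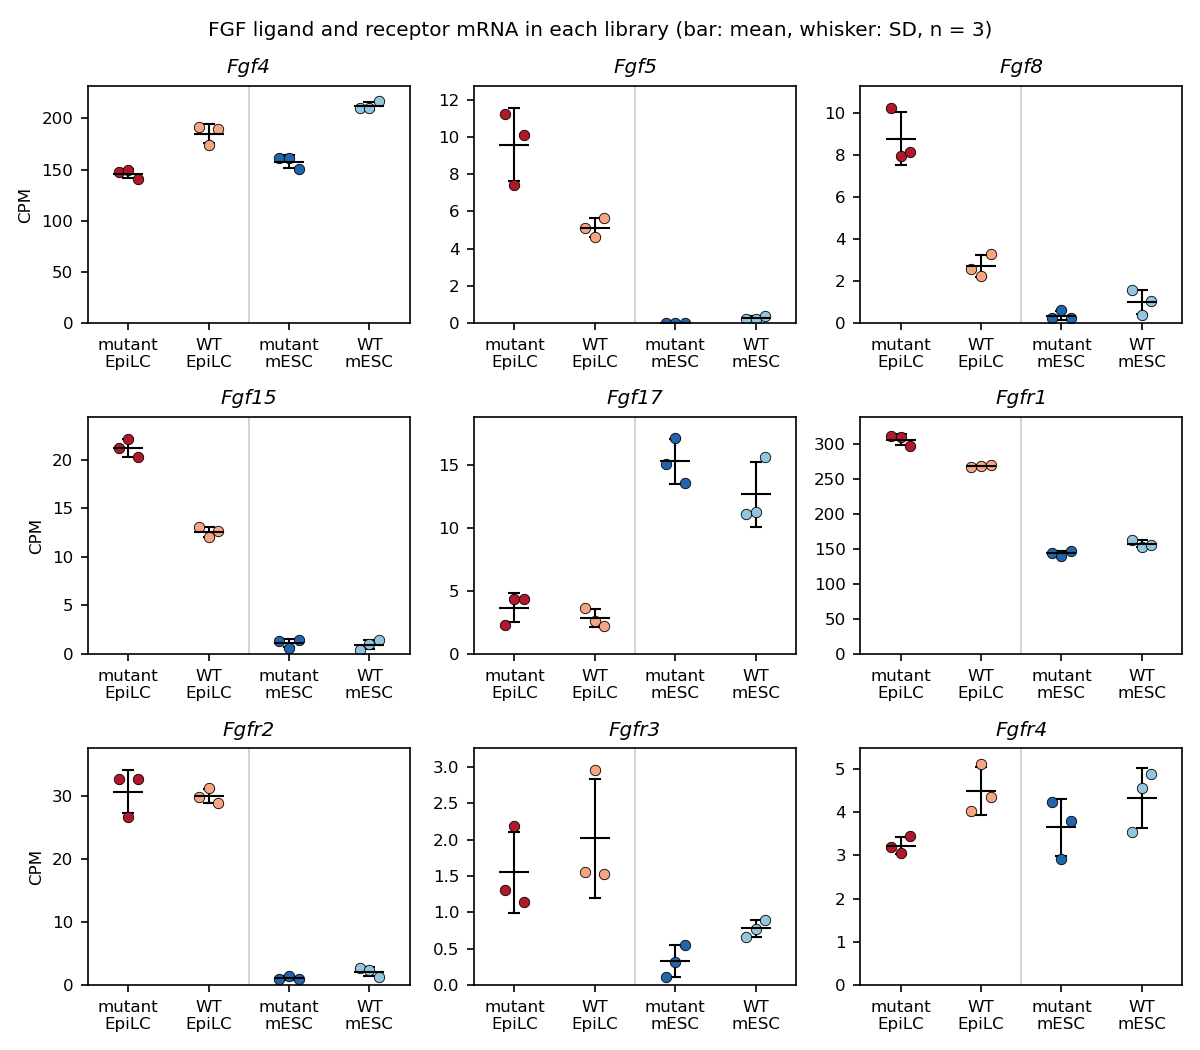
CPM of the 9 genes in each of the 12 libraries (points), with the mean (bar) and SD (whisker) of the 3 libraries of a group, each gene on its own linear axis. Fgf5, Fgf15 and Fgfr2 are low in all mESC libraries and higher in all EpiLC libraries, Fgf17 runs the other way, and Fgf4 sits lower in mutant than in WT libraries of both states.

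Fgf4, the FGF that naive cells make for themselves, was the ligand with the highest level per length in every group. The gene lies at chr7:144861386-144865245 on the plus strand (RefSeq, GRCm38.p6). It had 148, 149 and 141 CPM in mutant EpiLCs, against 192, 174 and 189 CPM in WT EpiLCs. In mESCs it had 161, 162 and 150.2 CPM with the mutant, against 209.7, 211 and 217 CPM with WT EPOP. Every mutant library was below every WT library of its state. Fgf4 fell in mutant cells by 0.34 ± 0.05 on the log2 scale in EpiLCs (SE; edgeR adjusted p = 1.5e-08) and by 0.43 ± 0.05 in mESCs (edgeR adjusted p = 1.2e-12). The mutant effect was 0.09 ± 0.07 log2 units higher in EpiLCs than in mESCs, with a 95% interval of -0.05 to 0.22 (edgeR adjusted p = 0.523). Between the states Fgf4 moved little: it fell by 0.20 ± 0.05 on the log2 scale in WT EpiLCs against WT mESCs (edgeR adjusted p = 0.000181). In mutant cells the corresponding fall was 0.11 ± 0.05 (edgeR adjusted p = 0.0433), and this call was lost with relative log expression size factors (0.0633), with DESeq2 (0.0757) and without several single libraries (0.0504 to 0.205).

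Fgf5, the marker ligand of the epiblast after implantation, was nearly absent in mESCs and was higher in mutant than in WT EpiLCs. The gene spans chr5:98254184-98277033 on the plus strand. It had 11.3, 7.43 and 10.1 CPM in mutant EpiLCs, against 5.13, 4.60 and 5.64 CPM in WT EpiLCs. In mESCs the 3 mutant libraries had no count and the 3 WT libraries had 2, 2 and 3 counts, or 0.194 to 0.385 CPM. The EpiLC groups did not overlap each other, and both lay far above the mESC groups. Fgf5 was higher in mutant than in WT EpiLCs by 0.91 ± 0.25 on the log2 scale (SE; edgeR adjusted p = 0.00388). That call depended on mutant EpiLC replicate 1, without which the log2 fold change was 0.78 and the edgeR adjusted p was 0.0701. In WT cells Fgf5 was 4.23 ± 0.45 log2 units higher in EpiLCs than in mESCs (edgeR adjusted p = 1.45e-15), a 19.2-fold ratio of means. In mutant cells the observed Fgf5 level in EpiLCs was 89.6-fold that of a mESC floor of 3 counts over the group.

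In mESCs the 7 WT counts of Fgf5 against 0 mutant counts made it 2.37-fold lower in mutant cells at the same floor. The floor covers counting error of the mutant zero only, and the 7 WT counts were taken as observed. Fgf5 was called (edgeR adjusted p = 0.028), but the call was lost without any of the mutant libraries or without WT mESC replicate 3 (edgeR adjusted p = 0.0748 to 0.0791). The mutant effect on Fgf5 differed between the states (edgeR adjusted p = 0.00994). From the summed counts as observed and the floor, it was 2.18 log2 units higher in EpiLCs than in mESCs. The counting error of those sums is not in this value.

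Fgf8, a ligand of the primitive streak and of brain signalling centres, had the largest mutant effect of the members in EpiLCs. It lies at chr19:45736491-45742941 on the minus strand. The mutant EpiLC libraries had 10.2, 7.91 and 8.14 CPM, against 2.56, 2.25 and 3.29 CPM in WT EpiLCs. The mutant mESC libraries had 0.223, 0.625 and 0.223 CPM, against 1.55, 0.389 and 1.03 CPM in WT mESCs. The EpiLC groups were separate, while the mESC groups overlapped and rested on 10 mutant and 26 WT counts in all. Fgf8 rose in mutant EpiLCs by 1.71 ± 0.29 on the log2 scale (SE; edgeR adjusted p = 9.86e-07). In mutant mESCs its log2 fold change was -1.38 ± 0.59, which did not pass the test (edgeR adjusted p = 0.0835). Without mutant mESC replicate 2 or WT mESC replicate 2 that fall was called, at edgeR adjusted p of 0.0426 and 0.0238. The difference of the mutant effects between EpiLCs and mESCs was 3.09 ± 0.65 log2 units (edgeR adjusted p = 0.000195). Fgf8 was 4.55 ± 0.41 log2 units higher in EpiLCs than in mESCs with the mutant (edgeR adjusted p = 5.36e-20) and 1.46 ± 0.40 units higher with WT EPOP (edgeR adjusted p = 0.00071).

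Fgf15, the mouse counterpart of human FGF19 and a ligand of the embryonic nervous system and the gut, was an EpiLC gene in these cells. It lies at chr7:144896532-144900953 on the plus strand, and its exons share 761 bases with Gm26793 and 26 bases with Gm39119 on the other strand. The sources used here do not state whether counting used strand, so reads of these genes cannot be told apart. Fgf15 had 21.2, 22.2 and 20.3 CPM in mutant EpiLCs, against 13.0, 12.1 and 12.7 CPM in WT EpiLCs. In mESCs it had 1.33, 0.625 and 1.45 CPM with the mutant, against 0.443, 1.07 and 1.41 CPM with WT EPOP. Mutant and WT libraries were separate in EpiLCs and mixed in mESCs. The rise in mutant EpiLCs was 0.75 ± 0.16 on the log2 scale (SE; edgeR adjusted p = 0.00016), against 0.23 ± 0.42 in mutant mESCs (edgeR adjusted p = 0.77). The difference between these effects, 0.53 ± 0.45 log2 units with a 95% interval of -0.36 to 1.41, was not called (edgeR adjusted p = 0.559). Between the states Fgf15 rose by 4.22 ± 0.24 log2 units in mutant cells and by 3.69 ± 0.26 in WT cells (edgeR adjusted p = 5.94e-35 and 1.88e-26).

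Fgf17, a close relative of Fgf8, was the member ligand that fell most in EpiLCs. It lies at chr14:70636203-70642268 on the minus strand. It had 2.34, 4.38 and 4.36 CPM in mutant EpiLCs against 15.1, 17.2 and 13.6 CPM in mutant mESCs. The WT EpiLC libraries had 3.68, 2.66 and 2.23 CPM, against 11.1, 11.3 and 15.7 CPM in WT mESCs. All EpiLC libraries lay below all mESC libraries. The log2 fold change of EpiLCs over mESCs was -2.08 ± 0.21 in mutant cells (SE; edgeR adjusted p = 3.26e-17) and -2.13 ± 0.22 in WT cells (edgeR adjusted p = 3.89e-16). Mutant and WT libraries overlapped in both states, and the log2 fold change of mutant over WT was 0.34 ± 0.27 in EpiLCs and 0.28 ± 0.17 in mESCs (edgeR adjusted p = 0.442 and 0.261). Fgf8 and Fgf17 thus moved in opposite directions between the states, since Fgf8 rose in the EpiLCs of both genotypes.

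Fgfr1 was the main receptor in every group and carried the smallest errors of the 4 receptors. This receptor is the one through which early epiblast cells mainly read FGF4. The gene lies at chr8:25518759-25575718 on the plus strand, with 164 exon bases shared with Gm16159 on the other strand. It had 312, 310.0 and 297 CPM in mutant EpiLCs, against 268, 268 and 270.5 CPM in WT EpiLCs. In mESCs it had 145, 140.1 and 147 CPM with the mutant, against 163, 154 and 157 CPM with WT EPOP. The mutant libraries lay above the WT libraries in EpiLCs and below them in mESCs. Fgfr1 rose in mutant EpiLCs by 0.19 ± 0.04 on the log2 scale (SE; edgeR adjusted p = 0.000643) and fell in mutant mESCs by 0.13 ± 0.05 (edgeR adjusted p = 0.0387). The mESC call was lost with limma-voom (adjusted p = 0.0504), with no filter on low counts (edgeR adjusted p = 0.0601) and without each library but WT mESC replicate 2 (edgeR adjusted p = 0.0542 to 0.191). The difference between the mutant effects in EpiLCs and mESCs was 0.32 ± 0.07 log2 units (edgeR adjusted p = 0.000115). Against mESCs of the same genotype, Fgfr1 was 1.09 ± 0.05 log2 units higher in mutant EpiLCs and 0.77 ± 0.05 units higher in WT EpiLCs (edgeR adjusted p = 1.01e-46 and 2.12e-32).

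Fgfr2, the receptor used by primitive endoderm and trophoblast cells of the early embryo, had the widest state difference of the receptors. RefSeq places it at chr7:130162451-130266808 on the minus strand, and the GENCODE gene shares 314 exon bases with Ctbp2 on the same strand. It had 32.7, 26.8 and 32.8 CPM in mutant EpiLCs, against 0.890, 1.46 and 1.00 CPM in mutant mESCs. With WT EPOP it had 29.9, 31.3 and 29.0 CPM in EpiLCs, against 2.66, 2.33 and 1.28 CPM in mESCs. The states were far apart in both genotypes, at 27.6-fold between the means in mutant cells and 14.4-fold in WT cells. On the log2 scale the fitted changes were 4.76 ± 0.21 and 3.81 ± 0.18 (SE; edgeR adjusted p = 5.03e-46 and 3.15e-41). Mutant and WT EpiLCs overlapped, with a log2 fold change of 0.04 ± 0.12 and a 95% interval of -0.20 to 0.27 (edgeR adjusted p = 0.883). In mESCs, Fgfr2 was called lower in mutant cells, with a log2 change of -0.92 ± 0.34 (edgeR adjusted p = 0.0404), although mutant and WT libraries overlapped and held 31 and 58 counts in all. That call was lost with limma-voom (adjusted p = 0.181), in a fit to the mESC libraries only (edgeR adjusted p = 0.125) and without any of 4 single libraries (edgeR adjusted p = 0.119 to 0.205). The mutant effect was 0.95 ± 0.36 log2 units higher in EpiLCs than in mESCs, which was not called (edgeR adjusted p = 0.072).

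Markers of other cell types were read beside Fgfr2, Fgf8 and Fgf15. Over all genes, 33.4% were higher and 32.6% lower in EpiLCs than in mESCs with the mutant, and 31.7% and 31.0% with WT EPOP. Of 8 primitive endoderm markers, 2 were higher and 1 lower in EpiLCs than in mESCs with the mutant (median log2 fold change 0.59), and 4 were higher and 1 lower with WT EPOP (median 2.15). Their summed level ran the other way. Summed markers of primitive endoderm stood at 29.0 to 32.6 CPM in mutant EpiLCs and 59.9 to 60.5 CPM in WT EpiLCs, against 150.3 to 158 CPM in mutant mESCs and 116 to 134 CPM in WT mESCs. Summed trophoblast markers stood at 33.0 to 34.3 CPM in mutant EpiLCs and 37.3 to 40.4 CPM in WT EpiLCs, against 134 to 152 CPM in mutant mESCs and 129 to 136 CPM in WT mESCs. Of 5 trophoblast markers tested, 2 were higher and 2 lower in EpiLCs in each genotype, with medians of 0.08 with the mutant and -0.23 with WT EPOP. Summed neuroectoderm markers stood at 288 to 313 CPM in mutant EpiLCs and 229.7 to 243 CPM in WT EpiLCs, against 44.6 to 58.7 CPM in mutant mESCs and 80.3 to 87.9 CPM in WT mESCs. Of the 7 neuroectoderm markers 4 were tested. In EpiLCs against mESCs all 4 were higher with the mutant, and 3 were higher and 1 lower with WT EPOP. Neurog2 was at 0 in 3 of the groups and Pax3 in mutant mESCs. The part of these markers in the Fgfr2, Fgf8 and Fgf15 results was not tested. Markers of the primitive streak, where Fgf8 is known to act, were at 16.8 to 19.3 CPM in mutant EpiLCs and 17.2 to 19.7 CPM in WT EpiLCs, so their sum did not separate the genotypes. Between mutant and WT EpiLCs the edgeR adjusted p of the 6 streak markers tested lay between 0.0825 and 0.81. In the same comparison 4 of 8 primitive endoderm markers were lower and 0 higher (median log2 fold change -0.86). Of the 4 neuroectoderm markers tested 2 were higher and 0 lower (median 0.31), and of the 5 trophoblast markers 1 was lower and 0 higher. Over all genes 7.02% were higher and 8.82% lower.

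Fgfr3 and Fgfr4 were minor receptors throughout. Fgfr3, a receptor best known from cartilage, lies at chr5:33721724-33737068 on the plus strand and shares 998 exon bases with G630022F23Rik on the other strand. It ran from 1.15 to 2.19 CPM in mutant EpiLCs and from 1.53 to 2.96 CPM in WT EpiLCs, against 0.111 to 0.557 CPM in mutant mESCs and 0.665 to 0.899 CPM in WT mESCs. It was higher in EpiLCs by 2.18 ± 0.62 log2 units in mutant cells (SE; edgeR adjusted p = 0.000936) and by 1.38 ± 0.50 in WT cells (edgeR adjusted p = 0.0116). The WT call was lost without WT EpiLC replicate 2 (log2 fold change 0.97, edgeR adjusted p = 0.151). Its log2 fold change of mutant over WT was -0.41 ± 0.45 in EpiLCs and -1.22 ± 0.70 in mESCs, and neither was called (edgeR adjusted p = 0.607 and 0.224).

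Fgfr4, a receptor of endoderm and liver, was the member with no call in any comparison. It lies at chr13:55152818-55168759 on the plus strand. It ran from 3.04 to 3.44 CPM in mutant EpiLCs and from 4.01 to 5.11 CPM in WT EpiLCs, and from 2.92 to 4.23 CPM in mutant mESCs and from 3.55 to 4.88 CPM in WT mESCs. Mutant EpiLCs lay below WT EpiLCs in every library, yet the log2 fold change of -0.48 ± 0.28 did not pass the test (SE; edgeR adjusted p = 0.261). Between the states its log2 fold change was -0.17 ± 0.29 in mutant cells, with a 95% interval of -0.73 to 0.39, and 0.06 ± 0.27 in WT cells, with an interval of -0.47 to 0.58 (edgeR adjusted p = 0.607 and 0.863).

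**Figure D2:**
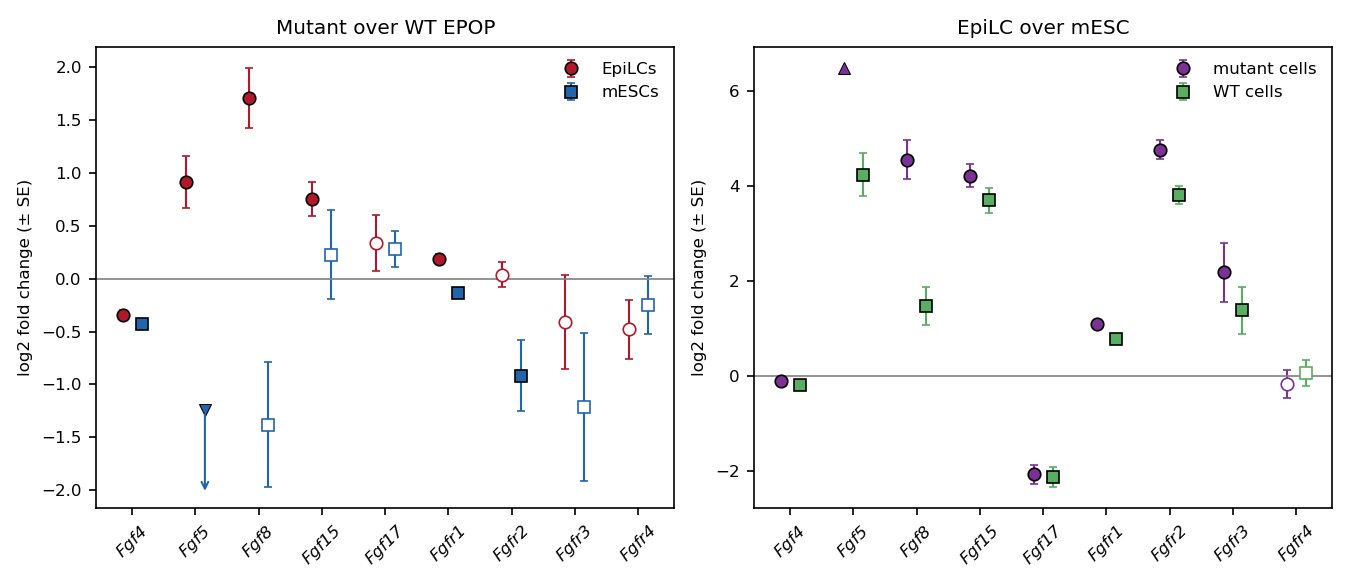
Log2 fold changes (± SE) of the 9 genes, on the left for mutant over WT EPOP in EpiLCs (circles) and mESCs (squares), on the right for EpiLCs over mESCs in mutant (circles) and WT cells (squares). Filled symbols passed an edgeR adjusted p of 0.05. Triangles give the Fgf5 value at a floor of 3 counts where mutant mESCs had no count (1.25 lower and 6.49 higher on the log2 scale). The other sums were taken as observed.

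In counts, 5 of the 9 genes were called between mutant and WT EpiLCs, where 15.8% of all tested genes were called. Of these, 4 were higher (7.02% of all genes) and Fgf4 was lower (8.82% of all genes). Between mutant and WT mESCs 4 were called, all lower (10.1% of all genes were lower, 8.40% higher and 18.5% called in either direction), and of these Fgf4 alone kept its call in each other fit and each omission of a library, while it did not reach a 2-fold change. The median log2 fold change of the 9 genes was 0.19 in EpiLCs and -0.43 in mESCs, beside medians of 0.00 over all genes in both. Between EpiLCs and mESCs, 8 were called in each genotype, where 66.0% of all genes were called in mutant and 62.7% in WT cells. In each genotype 6 were higher (33.4% of all genes in mutant, 31.7% in WT cells), and Fgf4 and Fgf17 were lower (32.6% and 31.0%). Fgf5, Fgf8 and Fgfr3 are among these 6 and passed the filter on low counts through their EpiLC libraries. Their part of the counts between states was therefore built in and gives no support. The mutant effect differed between the states for Fgf5, Fgf8 and Fgfr1, all upward in EpiLCs relative to mESCs, where 9.73% of all genes were called, 4.68% upward and 5.05% downward. Calls of at least 2-fold were made for 25.1% of all genes between the states in mutant cells, 21.1% in WT cells and 2.44% for the difference of effects. The groups did not overlap for 68.1% of all genes between the states in mutant cells and 65.1% in WT cells, and within a state for 30.5% in EpiLCs and 31.8% in mESCs. At least 2-fold calls between mutant and WT were 1.78% of all genes in EpiLCs and 3.85% in mESCs. The comparisons within a state and between states share libraries, so their counts are not separate pieces of evidence. The authors' deposited table held the same 5, 8 and 8 calls in its 3 comparisons, and its log2 fold changes were within 0.006 of those fitted here.

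Levels between genes were compared on the authors' deposited TPM, which are scaled by gene length. In mutant EpiLCs Fgfr1 stood first at 129 ± 2.6 TPM (SD, n = 3), ahead of Fgf4 at 102 ± 2.3 and Fgf15 at 24.8 ± 0.83 TPM. Fgf8 at 14.01 ± 2.1 and Fgfr2 at 12.1 ± 1.5 TPM overlapped, and Fgf5 (8.09 ± 1.7), Fgf17 (4.62 ± 1.5), Fgfr4 (2.16 ± 0.16) and Fgfr3 (0.741 ± 0.26) followed without overlap. WT EpiLCs had Fgf4 first at 132 ± 7.4 TPM, then Fgfr1 at 116 ± 0.51, Fgf15 at 15.1 ± 0.68 and Fgfr2 at 12.2 ± 0.47 TPM. Fgf8 (4.43 ± 0.86), Fgf5 (4.43 ± 0.44), Fgf17 (3.67 ± 0.98) and Fgfr4 (3.09 ± 0.37) overlapped each with the next, above Fgfr3 at 0.992 ± 0.40 TPM. The order of Fgf4 and Fgfr1 thus differed between mutant and WT EpiLCs on this scale.

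The mESCs of both genotypes shared the top of the order. In mutant mESCs Fgf4 had 104 ± 3.8 TPM, Fgfr1 57.2 ± 1.7, Fgf17 18.1 ± 2.0 and Fgfr4 2.31 ± 0.43 TPM (SD, n = 3). WT mESCs had 144 ± 1.1 TPM of Fgf4, 64.5 ± 2.5 of Fgfr1, 15.4 ± 3.0 of Fgf17 and 2.82 ± 0.43 of Fgfr4. Fgf15, Fgf8, Fgfr2 and Fgfr3 were at 1.26 ± 0.50, 0.539 ± 0.35, 0.417 ± 0.11 and 0.149 ± 0.10 TPM in mutant mESCs, and at 1.10 ± 0.55, 1.54 ± 0.92, 0.805 ± 0.28 and 0.364 ± 0.051 TPM in WT mESCs. Fgf5 was last, listed at 0 in the mutant libraries and at 0.218 ± 0.082 TPM in the WT ones. Fgf15, Fgf8 and Fgfr2 overlapped as neighbours in both genotypes, and in WT mESCs Fgfr4 also overlapped Fgf8. On counts per kilobase of GENCODE exon, Fgf4 stood above Fgfr1 in mutant EpiLCs as well (45.7 against 31.0 CPM per kilobase), so the order of that pair depends on the gene length used.

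As shares of the summed TPM of the 5 ligands, Fgf4 made up 66.4 ± 0.89% in mutant EpiLCs and 82.7 ± 0.21% in WT EpiLCs, and 83.9 ± 0.91% in mutant mESCs and 88.8 ± 1.8% in WT mESCs (SD, n = 3). In EpiLCs Fgf15 was the second ligand, at 16.2 ± 0.52% with the mutant and 9.44 ± 0.18% with WT EPOP. Fgf8 followed at 9.14 ± 1.2% with the mutant and 2.76 ± 0.46% with WT EPOP, and Fgf5 at 5.28 ± 1.1% and 2.77 ± 0.18% of the same groups. In mESCs the second ligand was Fgf17, at 14.6 ± 1.1% with the mutant and 9.47 ± 1.5% with WT EPOP. The summed level of the 5 ligands was 153 ± 3.4 TPM in mutant EpiLCs and 160.0 ± 9.4 TPM in WT EpiLCs, ranges that overlapped. In mESCs the sum was 124 ± 5.4 TPM with the mutant and 162 ± 4.7 TPM with WT EPOP, without overlap.

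Of the summed receptor TPM, Fgfr1 held 89.5 ± 0.89% in mutant EpiLCs and 87.7 ± 0.82% in WT EpiLCs, and 95.2 ± 0.38% in mutant mESCs and 94.2 ± 0.59% in WT mESCs. Fgfr2 held 8.45 ± 0.98% in mutant EpiLCs and 9.21 ± 0.30% in WT EpiLCs, and 0.698 ± 0.21% in mutant mESCs and 1.17 ± 0.39% in WT mESCs. The summed receptor level was 144 ± 2.8 TPM in mutant EpiLCs, against 60.0 ± 2.0 TPM in mutant mESCs. These shares come from mRNA and carry the gene lengths that the authors used.

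**Figure D3:**
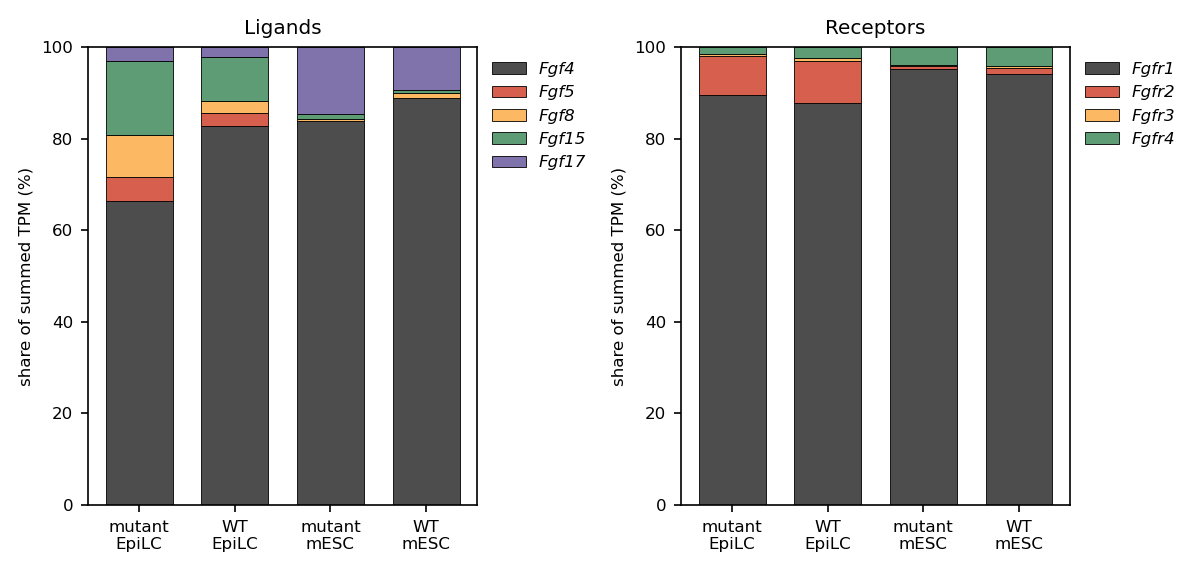
Mean share of each gene in the summed TPM of the 5 ligands (left) and of the 4 receptors (right) in each group, on a linear axis from 0 to 100%. Fgf4 and Fgfr1 take most of each bar, Fgf15, Fgf8 and Fgf5 fill more of the ligand bar in mutant EpiLCs than in WT EpiLCs, and Fgf17 is the second ligand of the mESC groups.

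Fgf4 and Fgf15 are neighbours on chromosome 7, between Fgf3 and the cyclin gene Ccnd1. In RefSeq 31.3 kb separate Fgf4 from Fgf15, 29.0 kb separate Fgf15 from Ccnd1 (chr7:144929931-144939831), and Fgf3 ends 18.0 kb before Fgf4. In mutant EpiLCs these neighbours moved in different directions: Fgf4 was lower, while Fgf15 and Ccnd1 were higher. Ccnd1, which drives entry into the cell cycle, averaged 235 ± 7.6 CPM in mutant EpiLCs and 159.7 ± 4.6 CPM in WT EpiLCs (SD, n = 3). It rose by 0.56 ± 0.05 on the log2 scale (SE; edgeR adjusted p = 1.33e-19). In mESCs it averaged 168 ± 5.4 CPM with the mutant and 172 ± 5.6 CPM with WT EPOP (edgeR adjusted p = 0.744), and the 2 effects differed by 0.59 ± 0.07 (edgeR adjusted p = 4.43e-12). The exons of Ccnd1 share 1100 bases with the gene LTO1 on the other strand.

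Fgf3, a ligand of ear and tail development, had 1.79 ± 0.51 CPM in mutant EpiLCs and 2.76 ± 0.74 CPM in WT EpiLCs, and 3.09 ± 0.79 CPM in mutant mESCs and 4.79 ± 1.2 CPM in WT mESCs. Its log2 fold change of mutant over WT was -0.62 in both states, with errors of 0.35 and 0.30, and it was not called (edgeR adjusted p = 0.245 and 0.145). Oraov1, Fadd, Ppfia1, Cttn and Shank2, the other tested genes around the locus, were not called between mutant and WT cells in either state (edgeR adjusted p of 0.168 to 0.982). The annotation did not list Oraov1 under that name, so its exon overlaps were not read. Whether LTO1 and Oraov1 are names of the same gene was not checked. In that list of 7 tested neighbours Ccnd1 was the only call between mutant and WT cells, in EpiLCs. Over all genes 15.8% were called in EpiLCs and 18.5% in mESCs.

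Of 17 other genes of the FGF family, not all of them secreted ligands, 7 passed the filter on low counts. Fgf2, whose protein was added to the EpiLC medium, had 26 counts over all 12 libraries and was not tested. Fgf10, a ligand of limb and lung buds, averaged 0.319 ± 0.18 CPM in mutant EpiLCs against 13.5 ± 1.3 CPM in mutant mESCs. With WT EPOP it averaged 0.653 ± 0.28 CPM in EpiLCs against 9.27 ± 0.73 CPM in mESCs. Fgf10 passed the filter on low counts through its mESC libraries. A difference between the states was therefore built into its selection for testing. The log2 fold changes of EpiLCs over mESCs were -5.31 ± 0.34 in mutant and -3.79 ± 0.31 in WT cells (SE; edgeR adjusted p = 1.73e-30 and 6.64e-22). Fgf10 was also higher in mutant than in WT mESCs by 0.54 ± 0.19 log2 units (edgeR adjusted p = 0.0338). Fgf1 rose and Fgf11, an intracellular family member, fell in EpiLCs of both genotypes. Between mutant and WT EpiLCs the edgeR adjusted p of the 7 lay between 0.163 and 0.872. In mESCs 1 was higher, Fgf10, and 1 lower, Fgf13, beside 8.40% and 10.1% of all genes. Fgf13 is named after its values were seen (log2 fold change -1.40, edgeR adjusted p = 0.0403). It averaged less than 2 CPM over the 12 libraries, so its change rests on low counts.

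Among 10 tested co-receptors and binding proteins, 4 were higher and 1 lower in mutant than in WT EpiLCs, beside 7.02% and 8.82% of all genes. Cdh2, the cadherin that binds FGF receptors at the membrane, averaged 56.5 ± 1.8 CPM in mutant EpiLCs and 33.4 ± 2.3 CPM in WT EpiLCs (SD, n = 3), which is 0.76 ± 0.10 on the log2 scale (SE; edgeR adjusted p = 5.34e-10). Fgfbp3, which releases FGFs from the matrix, averaged 25.6 ± 2.3 CPM in mutant EpiLCs and 17.8 ± 1.8 CPM in WT EpiLCs (log2 fold change 0.52 ± 0.14, edgeR adjusted p = 0.00388). Il17rd, an inhibitor of FGF receptor signalling also called Sef, was higher with the mutant in both states, by 0.47 ± 0.05 log2 units in EpiLCs and 0.54 ± 0.06 in mESCs (edgeR adjusted p = 2.01e-14 and 6.71e-12). The lower gene was Klb, beta-Klotho, the co-receptor through which Fgf15 acts in liver, and the fourth higher gene was Ncam1, an adhesion molecule that binds FGF receptors. Both are named after their values were seen, with log2 fold changes of -2.60 and 0.42 (edgeR adjusted p = 0.00143 and 0.00189). Klb averaged less than 2 CPM over the 12 libraries, so its change rests on low counts. In mESCs 1 gene of the list was higher and 1 lower, beside 8.40% and 10.1% of all genes, the lower being Fgfrl1, a receptor without a kinase, at 11.6 ± 0.87 CPM with the mutant and 17.6 ± 2.5 CPM with WT EPOP (edgeR adjusted p = 0.000305). The median log2 fold change of the list was -0.02 in EpiLCs and -0.28 in mESCs, beside 0.00 over all genes.

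Of 20 tested heparan sulphate genes, 6 were lower and 1 higher in mutant than in WT mESCs, beside 10.1% and 8.40% of all genes. In EpiLCs 2 were higher and 2 lower, close to the 7.02% and 8.82% of all genes. Hs6st2, which adds sulphate to the chains, averaged 0.178 ± 0.12 CPM in mutant mESCs and 1.39 ± 0.64 CPM in WT mESCs, which is -2.79 ± 0.61 in log2 units (SE; edgeR adjusted p = 0.000123). The syndecan Sdc2, a carrier of such chains, averaged 1.81 ± 0.52 CPM in mutant mESCs and 5.10 ± 1.4 CPM in WT mESCs (log2 fold change -1.48 ± 0.29, edgeR adjusted p = 2.55e-05). Between the states Hs6st2 rose by 6.33 ± 0.36 log2 units in mutant and 3.78 ± 0.24 in WT cells (edgeR adjusted p = 2.53e-35 and 2.57e-30). Hs6st2 passed the filter on low counts through its EpiLC libraries, so a difference between the states was built into its selection for testing. Its mutant effect differed between states by 2.55 ± 0.64 (edgeR adjusted p = 0.002). Sdc4, another syndecan, was lower in mutant than in WT EpiLCs, at 6.46 ± 1.4 and 10.4 ± 1.2 CPM (edgeR adjusted p = 0.000693). The median of the list was 0.02 in EpiLCs and -0.04 in mESCs.

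Of 13 tested receptor adaptors, 1 was lower in mutant EpiLCs (Cblb, a ubiquitin ligase), where 15.8% of all genes were called, and 1 was higher and 1 lower in mutant mESCs, where 18.5% were called. Frs2, the docking protein of FGF receptors, was 0.21 ± 0.08 log2 units higher in mutant mESCs (SE; edgeR adjusted p = 0.0469). Of 15 genes from RAS to ERK, 1 was lower in mutant EpiLCs (Rps6ka1, a kinase activated by ERK), with a log2 fold change of -0.18 ± 0.05, although its groups overlapped (edgeR adjusted p = 0.00977).

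Of 14 tested feedback inhibitors, 9 were higher and 1 lower in EpiLCs than in mESCs with the mutant, where 33.4% of all genes were higher and 32.6% lower. With WT EPOP 11 were higher and 1 lower, beside 31.7% and 31.0% of all genes. The median of the list was 1.03 in mutant and 0.97 in WT cells. Dusp4, a phosphatase of ERK, averaged 223 ± 5.6 CPM in mutant EpiLCs against 4.48 ± 1.0 CPM in mutant mESCs, and 251 ± 8.7 CPM in WT EpiLCs against 5.63 ± 1.6 CPM in WT mESCs. Dusp6, the ERK phosphatase of FGF signalling, averaged 239 ± 2.8 CPM in mutant EpiLCs against 31.8 ± 2.8 CPM in mutant mESCs, and 229 ± 10.4 CPM in WT EpiLCs against 24.4 ± 1.5 CPM in WT mESCs. Both rises passed the test in both genotypes (edgeR adjusted p of 1.52e-93 to 1.48e-79). Medium and state differ together here, and the mESC medium alone contained the MEK inhibitor.

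Between genotypes, 3 feedback inhibitors were called in mutant mESCs, all higher, where 8.40% of all genes were higher. In mutant EpiLCs 1 was higher and 3 lower, beside 7.02% and 8.82% of all genes. Spry4, a Sprouty inhibitor of receptor signalling, had the widest change of the list in mESCs, at 20.1 ± 3.9 CPM with the mutant and 9.59 ± 2.3 CPM with WT EPOP (SD, n = 3), or 1.07 ± 0.13 log2 units higher (SE; edgeR adjusted p = 3.74e-10). It was lower in mutant than in WT EpiLCs, at 62.7 ± 6.3 and 74.7 ± 3.5 CPM (edgeR adjusted p = 0.0308), and its mutant effect was 1.32 ± 0.16 log2 units lower in EpiLCs than in mESCs (SE; edgeR adjusted p = 1.9e-10). Spry2, with a log2 fold change of 0.43 ± 0.08, and Dusp6, with 0.39 ± 0.08, were the other 2 inhibitors that rose in mutant mESCs (edgeR adjusted p = 2.77e-05 and 0.000145). In mutant mESCs these inhibitors were thus higher while Fgf4 was lower, and the relation between these changes was not tested. In EpiLCs Spred3, a Sprouty-related inhibitor, was the inhibitor that rose, by 0.59 ± 0.11 log2 units (edgeR adjusted p = 2.2e-05).

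Of 16 ETS and immediate early genes, 4 were higher and 4 lower in mutant than in WT EpiLCs, beside 7.02% and 8.82% of all genes. In mutant mESCs 4 were higher and 1 lower, beside 8.40% and 10.1%. Between the states, 6 were higher and 9 lower in EpiLCs with the mutant, beside 33.4% and 32.6% of all genes. With WT EPOP 5 were higher and 7 lower, beside 31.7% and 31.0%. Egr1, an immediate early gene, fell in EpiLCs against mESCs, to 48.2 ± 5.9 CPM in mutant EpiLCs, against 917 ± 34.0 CPM in mutant mESCs, and to 32.5 ± 2.8 CPM in WT EpiLCs, against 599 ± 27.7 CPM in WT mESCs. Its log2 fold changes were -4.26 ± 0.05 and -4.20 ± 0.06 (SE; edgeR adjusted p = 6.3e-90 and 8.28e-87). Ets1, an ETS factor, rose in EpiLCs, by 4.18 ± 0.28 log2 units in mutant and 2.92 ± 0.22 in WT cells (edgeR adjusted p = 5.19e-29 and 2.69e-24). Myc, a growth regulator, rose by 1.95 in mutant cells and 2.96 ± 0.08 in WT cells (edgeR adjusted p = 5.08e-55 and 1.44e-67). In mESCs it was 1.18 ± 0.09 log2 units higher with the mutant (edgeR adjusted p = 1.33e-21). The mutant effect on Myc was 1.01 log2 units lower in EpiLCs than in mESCs (difference -1.01, edgeR adjusted p = 6.18e-13). Fos, another immediate early gene, rose in mutant EpiLCs by 0.76 ± 0.15, although its groups overlapped (edgeR adjusted p = 0.000261). Jun and Phlda1 fell by 0.77 ± 0.16 and 0.88 ± 0.18 (edgeR adjusted p = 8.6e-05 and 0.000117). The other lower genes were the ETS factors Etv4 and Etv5, at -0.53 and -0.31 (edgeR adjusted p = 5.92e-15 and 3.33e-10). Egr1, Ccnd1 and Myc were the other higher genes, at 0.56, 0.56 and 0.17 (edgeR adjusted p = 2.63e-10, 1.33e-19 and 0.0302). Etv4 and Etv5 are named after their values were seen.

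**Figure D4:**
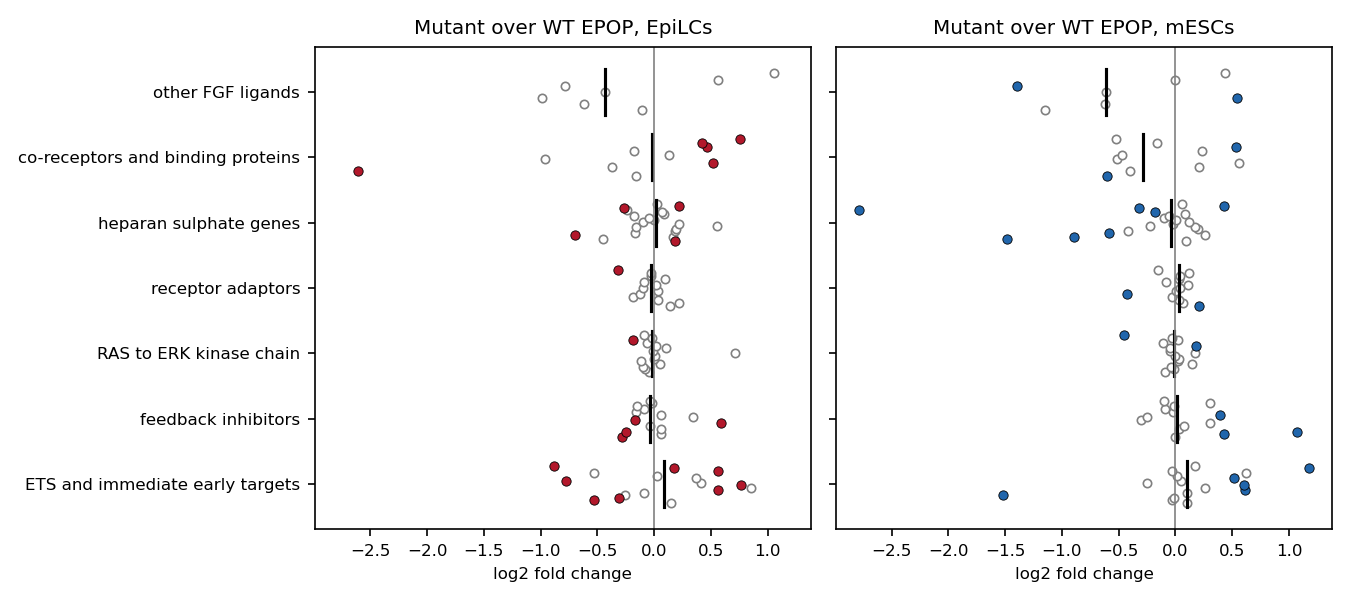
Log2 fold changes of mutant over WT EPOP in EpiLCs (left) and mESCs (right) for the tested genes of 7 FGF pathway lists, 1 point per gene, with a black bar at each list's median. Filled points passed an edgeR adjusted p of 0.05. The medians of the kinase chain, adaptors and feedback inhibitors lie within 0.04 of 0 in both panels.

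Genes whose pattern over the 12 libraries lay closest to a member were found by the root mean square difference of centred log2 CPM, among 12289 other genes that averaged 2 CPM or more (12290 for Fgfr3). For Fgf4 they were Arvcf, Map1lc3a and Senp3, with differences of 0.072 to 0.087. For Fgf5 the closest were Pde4b (0.164), Ptn (0.353) and Sox1 (0.382), and for Fgfr2 they were Car2 (0.287), Sox1 (0.293) and Fam131b (0.317). Sox1 is also on the list of neuroectoderm markers. Fgf15 lay closest to Fgfbp3 (0.345), Lefty1 (0.347) and Arl4c (0.366). Fgf8 had no gene as close, with Spsb4 at 0.531, Id2 at 0.537 and Frrs1l at 0.540, against its own spread of 1.57. Fgf17 lay closest to Hyal1 (0.222), Fgfr1 to Fads2 (0.040), Fgfr3 to Msl3 (0.247) and Fgfr4 to Crem (0.146). For Fgf4 and Fgfr4 the members' own spreads were 0.214 and 0.242, so those 2 genes varied little in any case.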

How the data were processed

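Counts per gene, as deposited by the authors, were analysed. The sources used here do not give the strand setting. The submitters' processing notes name STAR 2.5.3a, edgeR 3.18.1, FastQC 0.11.2 and featureCounts (Subread), and mm10 as the build. The authors' deposited CPM, treated as a score because their sums show scaling to effective library sizes, were checked only. The authors' deposited TPM gave levels between genes and shares. Log2 fold changes and p-values in the authors' deposited table served to compare calls. Groups follow the labels. Columns that are not WT carry a code that the labels lack, and they were taken as mutant by elimination.

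Of 19656 features, 26 with spreadsheet dates for symbols (0.182 to 0.212% of counts) were left out. filterByExpr, TMM (factors 0.98 to 1.01) and the edgeR 4.0.16 quasi-likelihood test (robust, R 4.3.3) were run on all 12 libraries in 1 fit of 4 groups, with 8 residual degrees of freedom and a biological coefficient of variation of 4.57%. P-values were adjusted by Benjamini-Hochberg across all 13879 genes and called at 0.05. CPM use TMM-scaled library sizes. No library was a copy of another, since pairs within a group had a chi-square of 1.91 to 3.00 per degree of freedom. The steps were tested on simulated data. Alternatives were relative log expression size factors, other filters on low counts, DESeq2 1.42.0, limma-voom (limma 3.58.1), the compared groups only, a replicate block, a 2-fold threshold and each library left out.

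The genes and lists were chosen with earlier results of these data known. All members are named. For each other list and comparison, up to 3 called genes with the largest change and a mean of at least 2 CPM were eligible for naming, of which some are printed, and all tested neighbours of the locus. Of the other listed genes named, Fgf2, Fgf10, Ncam1, Spred3, Phlda1, Jun, Rps6ka1, Fadd and Ccnd1 also share exon bases with a gene on the other strand. On the same strand Fgf2 shares 255 bases with Gm43439 and Sox1 shares 86 with Gm25239. The values of all these genes are uncertain to that extent. Exon overlaps of Oraov1 were not read. The mESC result for the RAS to ERK list is not reported here. Overlaps come from GENCODE M21 (GRCm38), and member and neighbour positions and promoters from RefSeq (GRCm38.p6).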

Additional observations from a re-analysis of the deposited data

Results flagged for a closer look

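The effect of mutant EPOP differed between EpiLCs and mESCs for 3 of the 9 genes by the test of the difference itself. For Fgf8 the effect was 3.09 log2 units higher in EpiLCs, with means of 8.76 CPM in mutant and 2.70 CPM in WT EpiLCs, and of 0.357 CPM in mutant and 0.989 CPM in WT mESCs (edgeR adjusted p = 0.000195). For Fgf5 the fitted difference was 5.23 log2 units (edgeR adjusted p = 0.00994). That size depends on the prior count, because mutant mESCs had no Fgf5 count. The value from the floor of 3 counts was 2.18 log2 units, with the other sums taken as observed. For Fgfr1 the difference was 0.32 log2 units, with means of 306 CPM in mutant and 269 CPM in WT EpiLCs, and of 144 CPM in mutant and 158 CPM in WT mESCs (edgeR adjusted p = 0.000115).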

How the results depend on the processing

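Of 672 recomputed log2 fold changes of single members, 620 kept their direction and side of the threshold, 38 lost and 3 gained a call and 11 changed sign. In mESCs the 4 calls of mutant against WT became 1 with a 2-fold threshold, 2 with no filter on low counts, 2 with limma-voom, 2 in a fit to the mESC libraries only, where 6 members were tested, and 1 to 4 when each library was left out. In EpiLCs the 5 calls became 1 with a 2-fold threshold, which Fgf8 alone passed, and 4 to 5 when each library was left out. The 8 calls between states were 7 to 8 without single libraries in each genotype, and the 3 differences of effects were 3 to 4. Sign changes were all of members that were not called: Fgf15 in mESCs (-0.11 to 0.532 without single libraries, lowest without WT mESC replicate 1), Fgfr2 in EpiLCs (-0.013 to 0.123, with -0.013 and -0.001 without mutant EpiLC replicates 1 and 3), Fgfr4 between states in WT cells (-0.067 to 0.139, with -0.056 without WT EpiLC replicate 2 and -0.067 without WT mESC replicate 1), and the Fgf17 difference of effects (-0.022 with limma-voom and -0.118 to 0.323 without single libraries). The cause was not tested. Same-numbered libraries of different groups did not deviate together over all tested genes (correlations of -0.044 to 0.027). These values cannot decide whether equal numbers mark a shared culture or day, since sharing that moves few genes would leave them near 0. With the replicate block the calls were 4 in mESCs, 5 in EpiLCs, 8 and 8 between states and 3 for the difference. In mESCs, 7 counts for Fgf5, 36 for Fgf8 and 30 for Fgfr3 over both genotypes limit what could be detected.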
